A study of Mus musculus with 6 samples.

Results

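The 10 genes described here carry dietary lipid from the gut lumen into chylomicrons, and were chosen by symbol from the 32285 features of the count tables; each symbol matched 1 feature. They are Cd36 and Npc1l1 (uptake at the brush border), Fabp1 and Fabp2 (fatty acid binding in the cytosol), Dgat1 (the last step of triglyceride synthesis), Mttp and Apob (assembly of the lipoprotein particle) and Apoa1, Apoa4 and Apoc3 (exchangeable apolipoproteins on its surface). The study asked how loss of the RNA-binding protein HuR (gene Elavl1) changes the cells of the small intestinal epithelium, and it sequenced single cells of 6 mice on the 10X Genomics platform. The 3 control libraries came from littermates with floxed HuR alleles and no Cre (HuR fl/fl-Cre-, labelled wild-type), and the 3 others from IE-HuR-/- mice, in which villin-Cre, active in all epithelial cells of the gut, acts on the same floxed alleles. All were young adult mice of C57BL/6 background. According to the methods animals went without food for a day before experiments, whereas the labels of these libraries state ordinary feeding.

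Absorption of fat by the enterocyte, the absorptive cell of the villus, runs in a fixed order. Fatty acids and monoglycerides released in the lumen cross the brush border, are carried by fatty acid binding proteins to the endoplasmic reticulum and are rebuilt into triglyceride, while cholesterol enters through NPC1L1. The microsomal transfer protein MTTP then loads lipid on apolipoprotein B, and the particle leaves through the Golgi towards the lymph. Enterocytes are born in the crypt and move up the villus until they are shed at its tip, and the gut is also patterned along its length, with bile acid uptake (Fabp6, Slc10a2) in the ileum and lactase (Lct) further up.

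Promoter sequence is shown for Apob and Fabp1, the members with the highest rise and the deepest fall along the villus (Apoa4 rose about as much as Apob). The sequences are from RefSeq (GRCm38.p6, the same assembly as the mm10 named in the submitters' processing notes), run 5′ to 3′ on the plus strand and stop before the annotated gene. Capitals mark matches to TATAAA, the TATA box, and to CAAAGGTC, which occurs within binding sites of the enterocyte factor HNF4, both searched on both strands.
Apob, chr12:7977427-7977628: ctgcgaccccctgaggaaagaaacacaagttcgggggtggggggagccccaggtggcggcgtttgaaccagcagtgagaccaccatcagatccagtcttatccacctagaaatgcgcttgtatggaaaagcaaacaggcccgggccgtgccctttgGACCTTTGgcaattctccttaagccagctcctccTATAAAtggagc
Fabp1, chr6:71199629-71199878: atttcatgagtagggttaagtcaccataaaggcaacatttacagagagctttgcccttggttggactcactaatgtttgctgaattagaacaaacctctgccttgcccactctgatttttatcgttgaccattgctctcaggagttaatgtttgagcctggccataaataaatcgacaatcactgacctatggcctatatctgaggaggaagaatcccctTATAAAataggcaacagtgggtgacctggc

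Within 250 bases before the transcript start, TATAAA was found in both of these promoters and in no other of the 8 member promoters listed, against 12.4% of 32851 mouse promoters. The letters CAAAGGTC occurred, on the reverse strand, in the Apob promoter alone among the 8, against 1.01% of all promoters. A further sequence, AGATAA, was searched in the same way and occurred in 0 of the 8, against 9.99% of all promoters. Apoa1, Apoc3 and Apoa4 lie next to each other on chromosome 9, within 14829 bases (chr9:46228630-46243458). Apob is at chr12:7977629-8016839, Fabp1 at chr6:71199879-71205034, Fabp2 at chr3:122895072-122899506 and Mttp at chr3:138089855-138143418. Cd36 is at chr5:17781690-17888959, Npc1l1 at chr11:6211011-6230245 and Dgat1 at chr15:76502012-76512021.

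The libraries held 60706 cell barcodes and 428980031 UMIs (unique molecules, counted once each), between 59518012 and 91818560 per library. Cells were assigned to classes by marker genes that include no member, which gave 29700 enterocytes, 3441 to 9708 per library. Levels are given as CPM, a gene's UMIs over all UMIs of the sum on the usual scale for such counts (0.1% of UMIs is 1000 CPM). In the enterocyte sums the 14 enterocyte markers made up 15081 to 15996 CPM, 9 goblet markers 851 to 1703, 12 T and NK cell markers 110 to 217 and 8 myeloid markers 5.99 to 15.3. The assignment used these same markers, so that the values describe it and are no separate check. Elavl1, the targeted gene, showed no fall in the IE-HuR-/- labelled libraries: its level in enterocytes was 31.8 ± 0.656 CPM (SD, n = 3) against 27.7 ± 1.37 in controls (log2 fold change 0.20, SE 0.049, edgeR adjusted p = 0.00115). Whether the counted reads lie in the deleted part of Elavl1 is not known from the count tables, so that this level does not check the deletion, and the groups are called by their labels throughout. In all, 435 barcode sequences occurred in more than 1 library.

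The 10 genes together gave 6.16% to 6.91% of all UMIs of enterocytes. When each enterocyte with at least 2000 UMIs was thinned to 2000, Fabp2 was detected in 98.4% to 99.6% of cells and Apoa1 in 98.7% to 99.6% across the 6 libraries, and Cd36 in 5.88% to 17.8%. T and NK cells, which should lack these genes, gave background shares of 64.5% to 91.2% for Fabp2 and 0.424% to 3.90% for Cd36. Median UMIs per cell were 1997 to 5318 in enterocytes and 4262 to 5507 in T and NK cells, and thinning kept 10803 of 19000 control enterocytes and 7548 of 10700 of the others. Fabp1 had a wide spread between cells for its median. In control 1 the cell at the 10th percentile had 0 Fabp1 UMIs of 2000, the median cell 5 and the cell at the 90th percentile 62. In IE-HuR-/- 1 these values were 0, 5 and 79.

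The members were graded along the villus, in both directions. Enterocytes were ordered by the share of villus tip landmark UMIs among tip and lower villus landmark UMIs (11 and 9 genes, none a member) and divided into 5 zones, from zone 1, the lowest, to zone 5, the tip. The zones held 5049 to 5781 cells, out of 27087 enterocytes with at least 5 landmark UMIs. The comparison of tip and lowest zone used edgeR's quasi-likelihood test (the library as a block) and Benjamini-Hochberg adjustment over all 10309 genes tested, at a threshold of 0.05. All 10 members differed, 8 higher and 2 lower at the tip. This is to be read against a large background, since 39.6% of all genes tested were higher and 43.6% lower at the tip.

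Apob and Apoa4 rose most towards the tip. Apob, the structural protein of the chylomicron, had 2174 to 2518 CPM in the lowest zone and 10903 to 12143 at the tip of the 3 controls, and 1838 to 1979 and 13422 to 13786 in the 3 IE-HuR-/- labelled libraries. The ranges of the lowest zone and of the tip did not overlap under either label (log2 difference 2.61, SE 0.10, edgeR adjusted p = 8.6e-10). For Apoa4, an apolipoprotein made mainly by the gut, the same levels went from 6617 to 7145 up to 27835 to 32290 in controls, and from 3643 to 4159 up to 30961 to 32979 in the others (log2 difference 2.60, SE 0.19, edgeR adjusted p = 2.5e-06). The tip levels of Apoa4 overlapped between the labels, but its levels in the lowest zone did not. Apoa1, its chromosomal neighbour and the main protein of high density lipoprotein, rose less (1.46, SE 0.062, edgeR adjusted p = 9.6e-10), and so did Apoc3, which lies between them (1.39, SE 0.18, edgeR adjusted p = 0.00017).

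Npc1l1, the cholesterol importer, was also graded. It had 417 to 449 CPM in the lowest zone and 1274 to 1377 at the tip of controls, and 394 to 397 and 1325 to 1350 in the IE-HuR-/- labelled libraries (log2 difference 1.73, SE 0.046, edgeR adjusted p = 2.0e-11). Cd36, the fatty acid translocase, was highest in the middle of the villus in controls, where zone 3 had 133 to 141 CPM against 118 to 128 at the tip and 96.2 to 98.8 in the lowest zone. Its difference between tip and lowest zone was 0.67 on the log2 scale (SE 0.11, edgeR adjusted p = 0.00051). This pools the labels, whose means were 0.34 in controls and 0.97 in the others. Mttp (0.47, SE 0.072, edgeR adjusted p = 8.3e-05) and Dgat1 (0.27, SE 0.042, edgeR adjusted p = 9.3e-05) rose least.

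The fatty acid binding proteins went the other way. Fabp1, the liver-type protein, had 17311 to 18340 CPM in the lowest zone of controls and 1011 to 1168 at the tip, a 16.6 ± 1.1-fold fall (SD, n = 3). For the IE-HuR-/- labelled libraries it went from 19025 to 20789 down to 2241 to 2439, which is 8.58 ± 0.725-fold (SD, n = 3). Over the 6 libraries the log2 difference was -3.53 (SE 0.20, edgeR adjusted p = 7.4e-07). T and NK cells, the background, had 313 to 957 CPM of Fabp1 in controls and 469 to 573 in the others, without TMM scaling. The part of free RNA in the tip levels and in these folds was not tested. Fabp2, the intestinal form, fell by 0.38 on the log2 scale (SE 0.081, edgeR adjusted p = 0.0011). In controls it was highest in zone 1 and had means of 10873, 10973 and 11079 CPM in zones 3, 4 and 5, whereas in all 3 other libraries it was highest in zone 2.

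**Figure D1:**
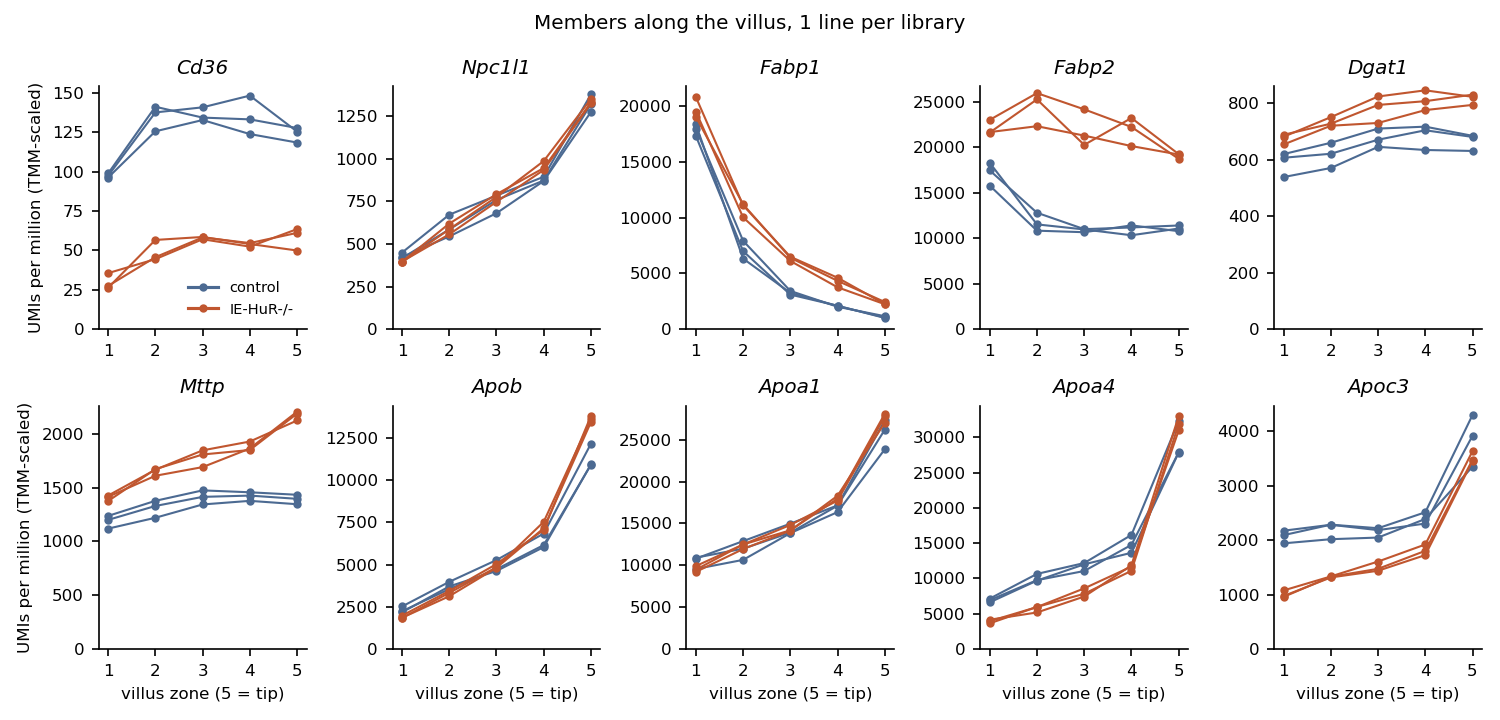
Level of each member (vertical axis, CPM after TMM scaling, from 0) in 5 villus zones from lowest (1) to tip (5), with 1 line per library, blue for control and orange for IE-HuR-/- labels. Apob, Apoa4, Apoa1, Npc1l1 and Apoc3 climb to the tip in all 6 libraries and Fabp1 falls from at least 17311 to at most 2439. The labels are apart along the whole villus for Cd36, Fabp1, Fabp2, Dgat1 and Mttp.

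The direction held in 6 of 6 libraries for all 10 genes on this scale. Without TMM, the scaling that sets the bulk of genes equal between sums, the median of all genes moved from -0.07 to -0.47, 2745 genes were higher and 5832 lower at the tip in place of 4085 and 4494, and Dgat1 reversed to -0.14 (edgeR adjusted p = 0.0026) and Mttp was not called (0.06). On that scale Apob, Apoa4, Apoa1, Apoc3, Cd36, Fabp2, Npc1l1 and Fabp1 kept their direction. Cells of the tip zone had more UMIs (library medians 6684 to 13671 against 5134 to 5994 in the lowest zone) and more mitochondrially encoded UMIs (9.98% to 12.9% against 1.19% to 1.98%), and the part of either in these differences was not tested.

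The genes whose levels followed each member most closely over the 30 sums (5 zones in 6 libraries) were taken by Pearson correlation of log2 levels, among 4515 genes with at least 20 CPM that are neither members nor landmarks. The 30 sums share libraries, zones and cells, so that these values describe likeness only. Apob was followed by Mxd1, Heca and Magi3 (r = 0.99 each), and Npc1l1 by Mxd1, Ell2 and Magi3 (0.99 each), so that the uptake gene for cholesterol and the particle protein shared 2 of 3 nearest genes. For Apoa4 the nearest were Slc17a4, the alkaline phosphatase Alpi and Samd8 (0.98 to 0.99). Apoa1 was followed by St14, Hist1h1c and the lipid droplet gene Cidec (0.99 each). Fabp1 was followed by the proteasome gene Psmb8 and the mitochondrial ATP synthase genes Atp5a1 and Atp5o (0.99 each). Fabp2 was nearest to Calm3, Mt1 and Car4 (0.96 to 0.98), and Cd36 to Cyp3a11, Akp3 and Ccl24 (0.96 to 0.97). Apoc3 (Bmp1, Cap1, Snx7), Mttp (Gclc, Zyx) and Dgat1 (Cs, Hyal2, Espn) had nearest genes at r between 0.91 and 0.96.

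Between the labels, Cd36 differed most. In whole enterocyte sums it had 122, 115 and 123 CPM in controls 1 to 3, and 47.6, 50.4 and 47.5 in the IE-HuR-/- labelled libraries. Every control was above every library of the other group, a 2.48-fold difference of the means (log2 fold change -1.31, SE 0.045, edgeR adjusted p = 3.9e-19). The share of enterocytes with a Cd36 UMI, at 2000 UMIs per cell, was between 15.97% and 17.8% in controls and 5.88% to 6.24% in the others, and before thinning 28.2% to 34.6% and 20.6% to 21.6%. In T and NK cells it was 2.05% to 3.90% and 0.424% to 0.769%.

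Of the 10 members, 8 differed between the labels in enterocytes, 5 higher and 3 lower in the IE-HuR-/- labelled libraries. Again the background was large: of 12794 genes tested 56.7% were called, 29.2% higher and 27.5% lower. Fabp2 had 11981, 12655 and 12812 CPM in controls and 20814, 22564 and 21686 in the others. The groups were well apart, with Fabp2 1.74-fold higher in the IE-HuR-/- labelled libraries (log2 fold change 0.80, SE 0.054, edgeR adjusted p = 6.7e-13).

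For Mttp the levels were 1316, 1241 and 1347 in controls against 1789, 1773 and 1742 (log2 fold change 0.44, SE 0.046, edgeR adjusted p = 4.4e-09), again without overlap. Fabp1 was at 6899, 6936 and 7358 in controls and 8678, 9552 and 9365 in the other libraries (0.38, SE 0.052, edgeR adjusted p = 5.3e-07). Dgat1 rose from 627 ± 35.3 to 757 ± 21.1 CPM (SD, n = 3; 0.27, SE 0.047, edgeR adjusted p = 1.5e-05). The groups did not overlap for Fabp1 or Dgat1 on these levels, but for Dgat1 they overlapped without TMM scaling.

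The apolipoproteins did not move together. Apoc3, an inhibitor of lipoprotein lipase, had 2295, 2484 and 2618 CPM in controls and 1826, 1992 and 1762 in the IE-HuR-/- labelled libraries. Every control was above every library of the other group, 1.33-fold (log2 fold change -0.41, SE 0.054, edgeR adjusted p = 6.9e-07). Apoa4 was at 13514, 13217 and 14958 against 12750, 13374 and 11733, so that the groups overlapped, with a log2 fold change of -0.14 (SE 0.058, edgeR adjusted p = 0.044). Without control 3 or without IE-HuR-/- 3, Apoa4 was no longer past the threshold (-0.10 and -0.09, edgeR adjusted p = 0.11 and 0.29). The overlap depended on the scaling: without TMM the Apoa4 levels were 14090 to 15876 in controls and 11211 to 12419 in the others.

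Apob had 5861, 5211 and 5189 CPM in controls and 6373, 6541 and 5824 in the others (log2 fold change 0.20, SE 0.056, edgeR adjusted p = 0.0030), with IE-HuR-/- 3 below control 1. The call for Apob was lost without control 2, without IE-HuR-/- 1 and without IE-HuR-/- 2 (log2 fold changes 0.13 to 0.15, edgeR adjusted p = 0.063 to 0.091). Apoa1 (15192 ± 841 against 16420 ± 688, SD, n = 3, log2 fold change 0.11, edgeR adjusted p = 0.084) and Npc1l1 (755 ± 35.5 against 803 ± 34.7, SD, n = 3, log2 fold change 0.09, edgeR adjusted p = 0.11) did not pass the threshold, and their groups overlapped. Without TMM scaling the Npc1l1 groups did not overlap, with controls higher (767.5 to 839.4 against 729.1 to 766.6 CPM). Either Apoa1 or Npc1l1 was called as higher in 3 alternatives. These were DESeq2, where 9 members were called, and the fits without control 3 and without IE-HuR-/- 3, where 8 were called.

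**Figure D2:**
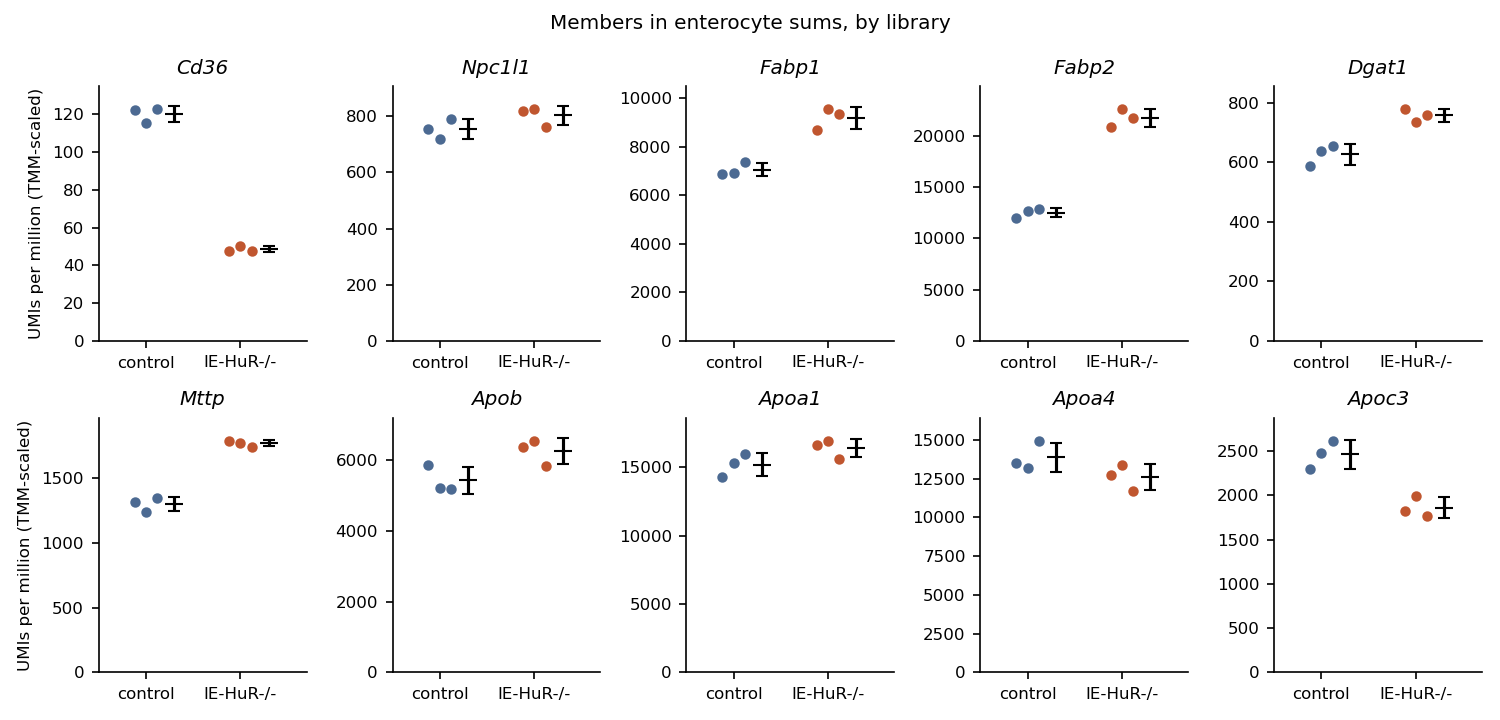
Level of each member in enterocytes of each library (vertical axis, CPM after TMM scaling, from 0), with points for the 3 libraries of each label and black bars for mean and SD. Cd36 is near 120 in controls and 48 in the IE-HuR-/- labelled libraries, Fabp2, Mttp, Fabp1 and Dgat1 are higher in the latter without overlap, and Apoa1, Apoa4, Apob and Npc1l1 overlap.

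On library totals alone the Elavl1 difference was 0.01 and not past the threshold (edgeR adjusted p = 0.82). Without TMM scaling the median log2 fold change of all genes moved from -0.01 to -0.19, and of the calls 1940 were higher and 5905 lower in place of 3737 and 3516. On that scale 6 members were called, 3 in each direction: Dgat1 (0.09) and Apob (0.02) were not called, and Apoa1 and Npc1l1 reversed without being called.

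The label difference varied with the zone. The term for zone by label was past the threshold for 8 of 10 members (edgeR's quasi-likelihood test on the tip and lowest zone sums), all in the direction of a larger tip value relative to the lowest zone in the IE-HuR-/- labelled libraries, as for 13.3% of the 10309 genes tested. It was largest for Fabp1 (0.94 on the log2 scale, SE 0.065, edgeR adjusted p = 3.9e-07), Apoa4 (0.93, SE 0.047, edgeR adjusted p = 6.5e-16) and Apoc3 (0.90, SE 0.053, edgeR adjusted p = 3.4e-12). Cd36 (0.61), Apob (0.54), Fabp2 (0.40), Mttp (0.38) and Apoa1 (0.21) followed, with edgeR adjusted p between 7.1e-13 and 0.00011. Npc1l1 (0.11, edgeR adjusted p = 0.054) and Dgat1 (0.08, edgeR adjusted p = 0.21) did not pass. The same 8 were called when any 1 library was left out. For Fabp1 the part of free RNA at the tip in this term was not tested. The landmark genes that define the zones differed between the labels themselves: in enterocytes 9 of 10 tip landmarks tested were higher in the IE-HuR-/- labelled libraries (median log2 fold change 0.60), and of 9 lower villus landmarks 5 were higher and 3 lower, with Gpx2 at 109 ± 14.7 against 706 ± 17.9 CPM (SD, n = 3). A zone may therefore not be the same villus position under both labels, and the part of this in the zone by label term was not tested beyond the other landmark sets.

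In the lowest zone all 10 members differed between the labels, 4 higher and 6 lower in the IE-HuR-/- labelled libraries (background 19.4% higher and 20.2% lower of all genes tested in that zone). Apoa4 had a log2 fold change of -0.82 there (SE 0.055, edgeR adjusted p = 6.3e-17), Apoc3 of -1.05 (SE 0.054, edgeR adjusted p = 6.9e-21) and Cd36 of -1.71 (SE 0.076, edgeR adjusted p = 6.5e-17). Apob was lower as well (-0.30, SE 0.055, edgeR adjusted p = 2.5e-05), opposite to its direction in whole enterocyte sums.

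At the tip 6 members differed, 5 higher and 1 lower (background 25.1% and 25.5%). Fabp1 was higher by 1.07 (SE 0.049, edgeR adjusted p = 3.3e-16), Fabp2 by 0.75, Mttp by 0.61, Dgat1 by 0.26 and Apob by 0.23 on the log2 scale, with edgeR adjusted p of at most 3.0e-05 for the last 4. The Fabp1 tip levels of controls were 1011 to 1168 CPM, and their T and NK cell background was 313 to 957. Tip cells of controls had more UMIs per cell (library medians 6684 to 12646.5) than T and NK cells of controls (4262 to 5507). Equal CPM is therefore not equal UMIs per cell here. The part of free RNA in the Fabp1 difference was not tested. Cd36 was still lower (-1.11, SE 0.067, edgeR adjusted p = 4.6e-13). Apoa4 (0.09, edgeR adjusted p = 0.13), Apoc3 (-0.16, edgeR adjusted p = 0.21), Apoa1 (0.07) and Npc1l1 (-0.02) did not pass. Apoa4 and Apoc3 were thus lower in zones 1 to 4 and not called at the tip, whereas Apob went from lower in zones 1 and 2 to higher in zones 4 and 5.

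**Figure D3:**
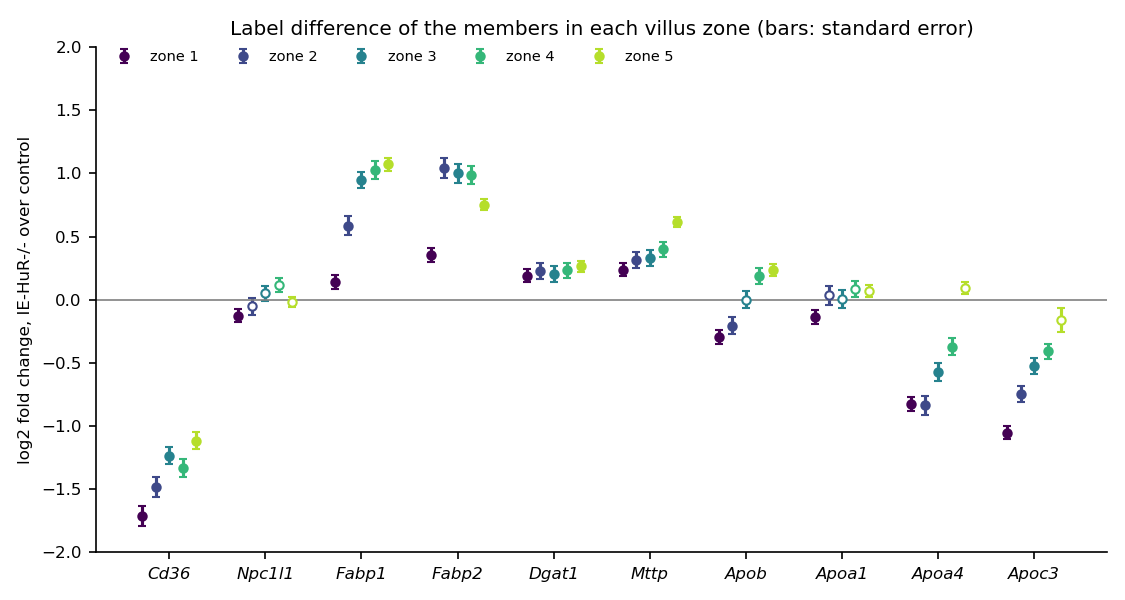
Label difference of each member in each villus zone (vertical axis, log2 fold change of IE-HuR-/- over control labels; points for zones 1 to 5 from dark to light, bars for the standard error, filled where the adjusted p was under 0.05). Cd36 is below 0 in all zones and Fabp1, Fabp2, Dgat1 and Mttp above 0, while Apob crosses from -0.30 in the lowest zone to 0.23 at the tip.

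Shares of enterocytes overlapped between the labels in each of the 5 zones. The lowest zone held 19.3% ± 4.9 of enterocytes in controls and 20.2% ± 0.61 in the others, and the tip 18.7% ± 1.7 and 21.5% ± 1.3 (SD, n = 3). In the 5 zones the two-sided exact permutation test gave p = 0.2 to 0.9 (0.5 to 0.9 adjusted over the 5), where 0.1 is the smallest p that 3 against 3 libraries allow. When the landmark UMIs of each cell were thinned to 5, cells with tip landmarks only made up 27.4% ± 1.5 and 30.6% ± 1.4 (SD, n = 3). The labels did not overlap there (exact permutation p = 0.1, 0.6 adjusted). When the landmarks for the lower villus also included Reg1, Reg3b and Reg3g, the lowest zone held 14.2% and 25.8%, and the tip 23.2% and 16.9% (exact permutation p = 0.1 each). The order of the labels at the tip thus depended on the landmarks.

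Genes of the ends of the gut moved with the labels as well, where 29.2% of all genes tested were higher and 27.5% lower. All 5 genes of the lower small intestine were higher in enterocytes of the IE-HuR-/- labelled libraries, among them Fabp6, the ileal bile acid binding protein, from 662 ± 19.5 to 3356 ± 49.3 CPM (SD, n = 3; log2 fold change 2.34, SE 0.048, edgeR adjusted p = 1.4e-24), Slc10a2, the bile acid importer (1.45), and Slc51b (0.69). Of 6 genes of the upper small intestine 4 were lower, among them Lct (-0.74), Adh1 (-0.75) and the iron exporter Slc40a1 (-1.58), all with edgeR adjusted p of at most 0.00097. The length of gut that was sampled and the expression per cell cannot be told apart here, and the part of these genes in the member differences was tested only by leaving Fabp6-rich cells out, as follows.

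The enterocytes were then divided, after these values had been seen, into Fabp6-rich cells (at least 0.1% of UMIs from Fabp6, Slc10a2 and Fgf15) and Fabp6-poor cells, among cells with at least 2000 UMIs. Since the division was chosen on the same data, the levels on either side are given with no test between the sides. The fits on Fabp6-poor cells given below were likewise chosen after these values had been seen. Fabp6-rich cells made up 6.80% to 6.86% of these enterocytes in controls and 16.6% to 17.4% in the IE-HuR-/- labelled libraries. Between 62 and 187 cells per library lay within 2-fold of the limit.

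The members differed widely on this axis. In all 6 libraries Cd36 was 6.15- to 13.9-fold, Fabp1 7.89- to 16.2-fold, Apoa4 6.22- to 15.6-fold and Apoc3 2.82- to 4.63-fold higher per UMI in Fabp6-poor than in Fabp6-rich cells. Mttp was 1.39- to 1.68-fold higher. Apoa1 was 1.11- to 1.32-fold and Npc1l1 1.20- to 1.33-fold higher in the Fabp6-rich cells, in every library, and Fabp2 1.03- to 1.99-fold. Dgat1 had no single direction (0.907- to 1.09-fold, poor over rich). In Fabp6-rich cells Cd36 was at 3.82 to 21.8 CPM and Fabp1 at 485 to 1103. The background in T and NK cells was 2.32 to 21.9 for Cd36 and 313 to 957 for Fabp1. In controls both genes overlapped it (Cd36 12.3 to 21.8 against 6.25 to 21.9, Fabp1 485 to 1024 against 313 to 957). In the IE-HuR-/- labelled libraries both were above it (Cd36 3.82 to 7.44 against 2.32 to 3.07, Fabp1 696 to 1103 against 469 to 573). UMIs per cell were not compared between these classes, so that equal CPM may not be equal UMIs per cell. Apoa4 was at 1105 to 2508 against a background of 593 to 1697. Apoc3 was at 444 to 1029 against 78.0 to 249. The part of free RNA in these folds was not tested.

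Per library, Apoa4 was at 1607, 2508 and 1105 CPM in Fabp6-rich cells of controls and at 2025, 2026 and 1714 in those of the other label. Of the 3 apolipoproteins of the chromosome 9 cluster, Apoa4 and Apoc3 were thus lower and Apoa1 higher in Fabp6-rich cells. Apob was 1.23- to 1.40-fold higher in the Fabp6-poor cells of controls, but between 0.917- and 1.03-fold in the IE-HuR-/- labelled libraries. Fabp2 in Fabp6-rich cells had 23347, 25564 and 25227 CPM in controls and 20595, 24067 and 21334 in the others, so that the groups overlapped there, unlike in the Fabp6-poor cells (ratio of means 1.58).

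**Figure D4:**
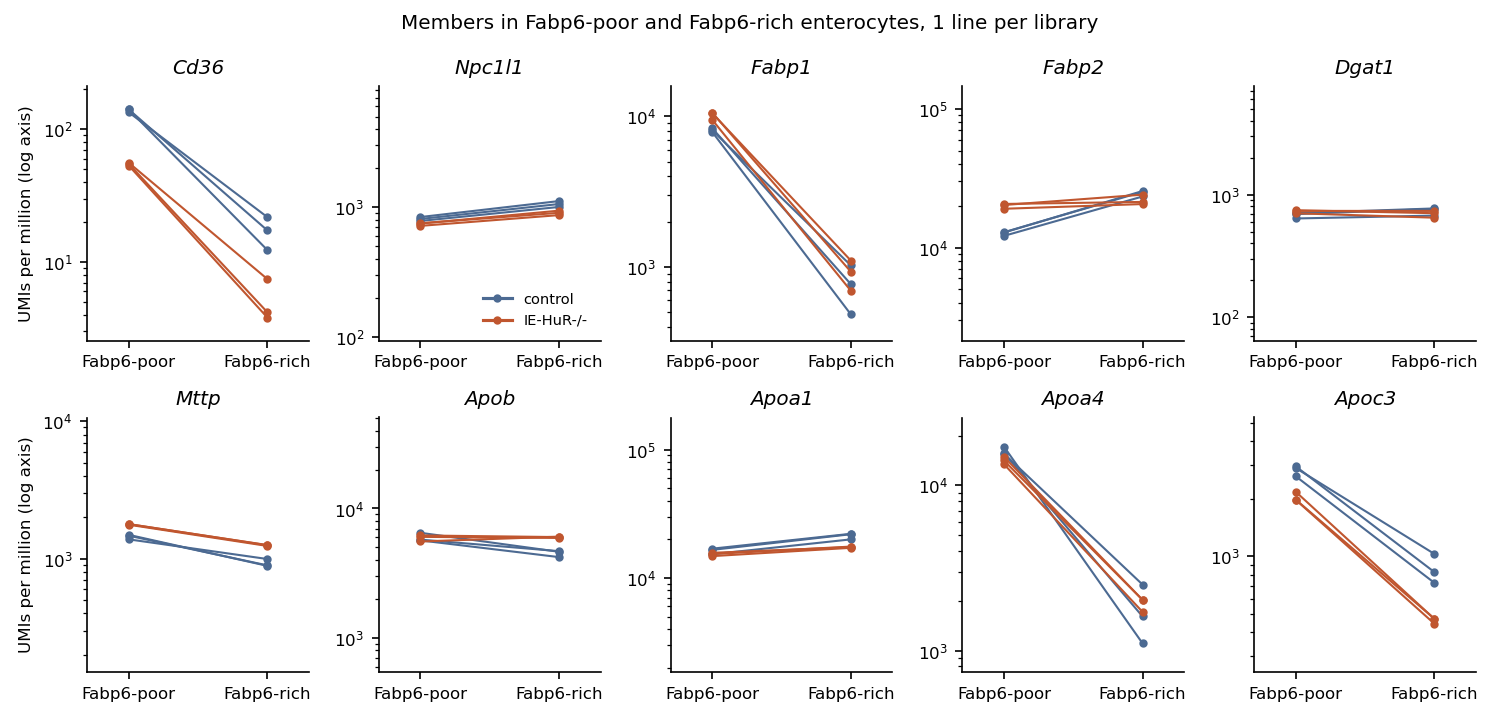
Level of each member (vertical axis, CPM, log axis) in Fabp6-poor and Fabp6-rich enterocytes, with 1 line per library, blue for control and orange for IE-HuR-/- labels. Cd36, Fabp1, Apoa4 and Apoc3 drop in the Fabp6-rich cells in all 6 libraries, by at least 2.82-fold, and the other members differ by less than 2-fold.

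When the label test was repeated on the Fabp6-poor cells alone, 6 of the 10 members were called, against 54.5% of all 12352 genes tested there. Cd36 (-1.20, SE 0.047, edgeR adjusted p = 3.1e-21), Fabp2 (0.80), Fabp1 (0.47), Mttp (0.43), Apoc3 (-0.33) and Dgat1 (0.24) kept their call and direction (edgeR adjusted p of at most 9.7e-05). Apoa4 (-0.05, edgeR adjusted p = 0.49) and Apob (0.13, edgeR adjusted p = 0.061) lost it. Lct stood at 1192 ± 56.7 CPM without TMM scaling in these cells of controls and 703 ± 8.37 in the others (SD, n = 3). The zone by label term held in these cells for the same 8 members and for Npc1l1 (0.18, edgeR adjusted p = 0.0079), where 11.4% of 10223 genes were called in that direction.

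In other cell classes most members stood near the level of the enterocyte markers, relative to enterocytes, with exceptions. The 14 enterocyte markers, summed, reached 53.0% of their enterocyte level in goblet cells, 47.3% in tuft cells, 42.0% in enteroendocrine cells, 12.5% in crypt progenitors and 10.2% in T and NK cells. Most members lay near the same percentages: in goblet cells 9 of them were between 49.5% and 68.2% of their enterocyte level. In T and NK cells, taken as the background of free RNA, all 10 were between 5.75% and 13.0%. This background is capped, since T and NK cells were kept only with under 0.5% of UMIs from enterocyte markers. Carried-over RNA and the cells' own expression cannot be told apart in the other classes. Crypt progenitors had members at 5.13% to 21.8%, which for Apoa4, Apoc3, Apob and Cd36 is below the background in T and NK cells, as means of 6 libraries. In the IE-HuR-/- labelled libraries alone 3 of these were above it: Apoa4 (903 against 659 CPM), Apoc3 (150 against 81.7) and Cd36 (5.81 against 2.63). Apob was below it there (633 against 669).

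Tuft cells, the chemosensory cells of the epithelium, stood apart for Fabp1. Its level in them was 12059, 11701 and 9182 CPM in controls and 14445, 13629 and 19357 in the IE-HuR-/- labelled libraries, against 7371 to 8949 in enterocytes on the same unscaled measure. Every tuft sum was above every sum over whole enterocytes, but enterocytes of the lowest zone, at 17311 to 20789 CPM after TMM scaling, were above 5 of the 6 tuft values. Against whole enterocytes Fabp1 stood at 166% of its enterocyte level, 3.51 times the ratio of the enterocyte markers. The other 9 members were at 33.4% to 53.8% in tuft cells. These values come from 183 tuft cells, 17 to 45 per library. In enteroendocrine cells Fabp1 was instead at 16.4% and Fabp2 at 28.1%, both below the enterocyte markers.

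Cd36 stood apart in myeloid cells, where it had 269, 152 and 141 CPM in controls and 74.6, 85.0 and 21.6 in the others (313 cells, 214 UMIs in all). The groups did not overlap. Relative to the enterocyte markers this was 15.8 times the enterocyte ratio, while the other 9 members were at 4.85% to 11.3% of their enterocyte level in myeloid cells. Myeloid markers in the enterocyte sums were at most 15.3 CPM, a level that the assignment of cells itself limits.

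**Figure D5:**
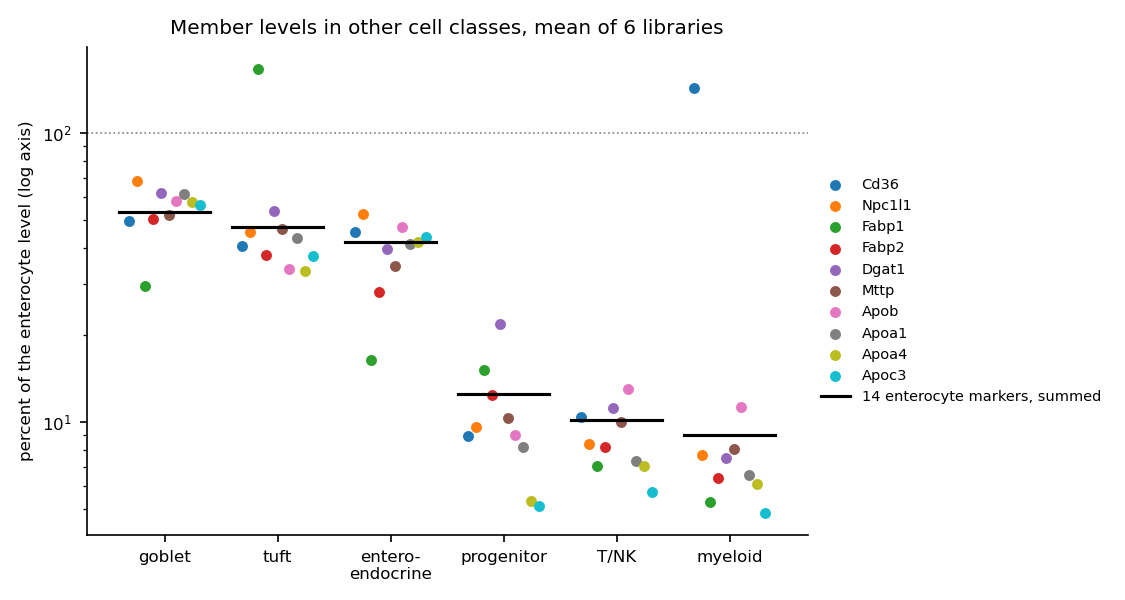
Mean level of each member over 6 libraries in other cell classes, as percent of its level in enterocytes (vertical log axis), with black lines for the sum of 14 enterocyte markers. Most members sit near the line of their class, and Fabp1 in tuft cells (166%) and Cd36 in myeloid cells (143%) are above the enterocyte level.

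In goblet cells (158 to 297 per library) 3 members were called, all lower in the IE-HuR-/- labelled libraries, against 12.5% of 9055 genes tested that were lower there. Cd36 had 76.0, 65.1 and 66.3 CPM, without TMM scaling, in controls and 17.2, 19.7 and 13.5 in the others, with no overlap (log2 fold change -1.87, SE 0.13, edgeR adjusted p = 6.6e-10). Apoc3 (-0.90, SE 0.11, edgeR adjusted p = 1.6e-06) and Apoa4 (-0.45, SE 0.12, edgeR adjusted p = 0.0076) followed. Without control 1 or control 2, Apoa4 was not called there (edgeR adjusted p = 0.066 and 0.084). The summed enterocyte markers in goblet cells were lower in those libraries too, 0.758 times the control mean without overlap, and their part in these differences was not tested.

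Crypt progenitors were few (174 cells, 12 to 49 per library), and of 9 members tested none was called, in a comparison that called 9 of 4570 genes, 0.197%. At an unadjusted p under 0.05 that comparison had 342 genes. DESeq2 called 12 genes there, of which 1 was a member, Fabp2. Fabp2 had a log2 fold change of 2.01 (SE 0.43) with an edgeR adjusted p of 0.35 and a DESeq2 adjusted p of 2.2e-06. Fabp1 had 266 ± 244 CPM in controls and 2173 ± 936 in the others without TMM scaling (SD, n = 3), with no overlap, and a log2 fold change of 3.03 (SE 0.99, edgeR adjusted p = 0.63). The 10 members together were 3.25-fold higher in those libraries, also without overlap, and were not tested as a sum. The 14 enterocyte markers, summed, were 1.52 times the control mean there, with overlap (852 to 2714 CPM in controls, 1552 to 3916 in the others). Their part in these differences was not tested.

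The neighbouring steps of the pathway were read from lists that hold no member. Their counts are to be read against the background, in which 29.2% of 12794 genes tested were higher and 27.5% lower. Of the uptake and fatty acid binding list 4 of 8 genes tested were higher and 3 lower in enterocytes of the IE-HuR-/- labelled libraries (median log2 fold change 0.13, against -0.01 over all genes). Plb1, a brush border phospholipase, rose by 0.49, the acyl-CoA binding protein Dbi by 0.40 and the fatty acid transporter Slc27a4 by 0.36, while Slc27a2 fell by 0.61. In the re-esterification list 7 of 15 were higher and 3 lower. Lpin2, a phosphatidate phosphatase, rose from 196 ± 5.81 to 434 ± 19.4 CPM (SD, n = 3), by 1.15 on the log2 scale, and Lpcat3 (0.51) and Agpat2 (0.45) also rose. The acyl-CoA synthetase Acsl1 fell by 0.57, Agpat1 by 0.26 and Agpat3 by 0.12.

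In the chylomicron assembly and export list 17 of 24 genes tested were higher and none lower, with a median of 0.17. The largest rises were in the transport genes Sec23b (0.37), Surf4 (0.33) and Preb (0.31). That count depended on the scaling: without TMM 5 were higher and 5 lower, with a median of -0.01 where all genes had -0.19. Of the lipid droplet list 7 of 11 were higher and 2 lower, among them Hsd17b11 (0.45), Lipe (0.37) and Pnpla2 (0.31) upward and Plin2, a droplet coat protein, downward (-0.42). Without TMM scaling that list had 3 higher and 3 lower, the uptake list 3 and 4, and the re-esterification list 6 and 4.

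For cholesterol traffic 4 of 11 genes were higher and 3 lower, where the background was 29.2% and 27.5%. Soat2, which esterifies cholesterol for the particle, rose by 0.58, Npc1 by 0.52 and Stard3 by 0.40, while the exporters Abca1 (-0.44) and Abcg8 (-0.10) fell. Among 18 regulators 5 were higher and 7 lower, against the same background. Prdm1, a transcriptional repressor, rose by 1.13 and Hnf4a, which drives many enterocyte lipid genes, by 0.38, while Cdx2 fell by 0.51 and Srebf1 by 0.39. Nr1h2 (0.23) rose and Rxra (-0.18) fell less. Without TMM scaling the regulators were 2 higher and 12 lower, and cholesterol traffic 3 higher and 7 lower. All named changes of these lists had edgeR adjusted p of at most 0.043.

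Along the villus the same lists were mixed. Of all genes tested 39.6% were higher and 43.6% lower at the tip. At the tip 15 of 24 assembly and export genes were higher and 7 lower, and of 10 lipid droplet genes 6 were higher and 3 lower, with medians of 0.31 and 0.98. Dgat2, the second enzyme that completes triglyceride, rose towards the tip by 1.80 (edgeR adjusted p = 2.7e-11) and Cidec by 2.69, whereas Mogat2, which acts just before, fell by 0.99 and Plin2 by 1.77. These 4 were chosen after their values had been seen. Without TMM the assembly and export genes were 6 higher and 12 lower at the tip, with a median of -0.10 where all genes had -0.47. Of the genes named above as higher in the IE-HuR-/- labelled libraries, Lpin2 (3.30), Npc1 (3.95) and Prdm1 (4.12) also rose strongly towards the tip. Dbi (-1.60) and Preb (-0.22) fell, values likewise picked after they had been seen. The part of villus position in the label differences of these lists was not tested.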

How the data were processed

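Small intestinal epithelium of 3 control and 3 IE-HuR-/- mice was dissociated and loaded on the Chromium platform (5′ kit per the labels, 3′ kit per the methods). The deposited values of each library are UMI counts, made with Cell Ranger and not normalized. Every barcode in them has at least 500 UMIs. The submitters' processing notes name mm10, and the methods name a human reference and an older Cell Ranger than the file headers. Members and gene lists were chosen with earlier results of these data known.

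From these counts, barcodes with at least 200 genes (60431) were assigned to classes by summed marker shares (enterocytes at least 0.5% and 10 UMIs from 14 markers). No doublet caller was run. Left out were 466 barcodes with markers of several classes and 23280 that met the limits of no class. The latter had a median of 924 UMIs and made up 24.3% to 49.7% of the barcodes kept in a library. UMIs were summed per library and class, so that libraries, not cells, are the replicates. Sums were tested with edgeR 4.0.16 in R 4.3.3 (quasi-likelihood, TMM, filterByExpr with a minimum count of 10, Benjamini-Hochberg adjustment over all genes tested, threshold 0.05), with DESeq2 1.42.0 as an alternative. Shares were compared by exact permutation tests in scipy 1.17.1. On simulated counts with 2-fold changes the enterocyte test recovered 164 of 182 changed genes, the goblet test 148 of 178, the progenitor test 74 of 141 and the zone test 180 of 186. False calls were 7, 2, 3 and 10. Only these few genes of 12762 were changed in the enterocyte simulation, whereas 56.7% were called in the data. Recovery of changes under 2-fold, as most member label differences in enterocytes were, and of TMM with many changed genes was not simulated. Pairs of libraries of 1 label differed beyond sampling noise (chi-square per degree of freedom 6.24 to 17.1). P-values of the label tests measure the spread between libraries, which may be technical where the labels do not name separate animals. In the zone and zone by label tests the library was a block, so that their p-values measure how the tip-to-lowest difference varied between libraries. The zone test pooled both labels, and its spread includes the label difference in that term. Named genes are the members, Elavl1, for each list the 3 largest rises and falls among called genes of at least 20 CPM, and the 3 genes most correlated with each member, of which 1 is not reported here. Promoter sequences were found for 8 of 10 members; Apoc3 and Dgat1 have none here. Library totals were 59518012 to 91818560 UMIs, and the number of libraries limits the precision.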

Additional observations from a re-analysis of the deposited data

Results flagged for a closer look

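For 8 members the difference between tip and lowest zone was itself different between the labels, by the zone by label term of edgeR's quasi-likelihood test (IE-HuR-/- minus control labels, on the log2 scale): Fabp1 0.94, Apoa4 0.93, Apoc3 0.90, Cd36 0.61, Apob 0.54, Fabp2 0.40, Mttp 0.38 and Apoa1 0.21, with adjusted p of at most 0.00011. The term for Apoa1 was 0.02 (edgeR adjusted p = 0.77) when the Reg genes were added to the landmarks.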

How the results depend on the processing

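In enterocytes the number of genes called was 6470 to 7132 when 1 library was left out and 7076 with the replicate block, against 7253, and members called were 7 or 8 when 1 library was left out and 7 with the replicate block, where Apoa4 was not called (edgeR adjusted p = 0.064). The replicate numbers do not pair the libraries (correlations of same-numbered deviations 0.062, -0.25 and -0.02). Without TMM scaling Npc1l1 (-0.0946) and Apoa1 (-0.0718) reversed, and with equal UMIs from each zone Apob was not called (0.09). Without TMM scaling Dgat1 reversed at the tip (-0.14), and against the middle zone, where 6 members were called in place of 10, so did Cd36 (-0.0928) and Dgat1 (-0.00137). With tip landmarks alone Fabp2 reversed (0.13). With the Reg genes among the landmarks, the terms for zone by label of Npc1l1 (-0.21, then past the threshold at edgeR adjusted p = 0.00041) and Dgat1 (-0.0558) reversed, and without TMM those of Npc1l1 (-0.00348) and Dgat1 (-0.0387). With the Reg genes the shares in zones 1, 2, 4 and 5 differed by 11.5, 3.62, -7.13 and -6.25 percentage points, each at the smallest exact permutation p of 0.1. The zone by label alternatives and the fits on Fabp6-poor cells were chosen after seeing the data. The cause of these changes was not tested.

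Progenitor calls were 69 with no filter on low counts, 22 with the replicate block and 3 to 50 when 1 library was left out (50 without control 2, 16 without IE-HuR-/- 1, 3 without control 1 and 3 without control 3), against 9. Members called there were 1 with DESeq2, with no filter and with the replicate block, and 0 to 1 when 1 library was left out (1, Fabp2, without IE-HuR-/- 2). In goblet cells 6 members were called without TMM and 2 to 5 when 1 library was left out (5 without IE-HuR-/- 2), against 3. For single genes in enterocytes, 192 values under alternatives kept direction and side of the threshold, 12 lost their call, 3 gained one and 2 reversed.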

Other observations

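Elavl1 had its own pattern along the villus: its zone by label term was -0.32 (SE 0.095, edgeR adjusted p = 0.011). In the lowest zone it was higher in the libraries labelled IE-HuR-/- (34.8 ± 2.56 against 26.7 ± 1.89 CPM, SD, n = 3, log2 fold change 0.37, edgeR adjusted p = 9.6e-05), and at the tip it was at 30.9 to 32.4 against 28.0 to 32.4 (0.04, edgeR adjusted p = 0.66). Fabp6, taken here only as a marker of the lower gut, was at 18.7 to 244 CPM in T and NK cells of controls and 188 to 289 in the others. The limit of 0.1% used to divide the enterocytes applied to single cells and to Fabp6, Slc10a2 and Fgf15 together. These sums therefore do not show how many enterocytes free RNA may have carried past it, which was not tested.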
